A study of Mus musculus with 8 samples.

Results

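Histone genes were followed in single CD45+ cells of mouse mammary tumors. Of 83 gene symbols that name a core or linker histone in the older mouse nomenclature (symbols that begin with Hist1h to Hist4h, H1f, H2af or H3f), 67 had at least 20 unique molecular identifiers (UMIs, counted mRNA molecules) over all kept cells and are described here, out of 32285 genes in the count matrices. The selection used the symbol and the total UMI count only. The lowest genes inside that limit were Hist2h3c2 with 28 UMIs and Hist1h2bl with 29, and the highest outside it was Hist1h4k with 18. Of the other 16 symbols, 8 had no UMI. The 67 genes comprised 57 genes of the Hist clusters (5 for H1, 14 for H2A, 16 for H2B, 11 for H3 and 11 for H4) and 10 others: the linker histone genes H1f0 and H1fx, 5 H2af genes, H3f3a, H3f3b and H3f3aos, which is antisense to H3f3a.

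The cells came from tumors grown orthotopically in the mammary gland of female mice and taken on day 18. E0771 is a murine mammary cancer line, and 2 mice carried its parental form (replicates 1 and 3). The lines E0771-Res1 and E0771-Res2, each established from a tumor that relapsed after paclitaxel (a chemotherapy drug) and anti-PD-1 (a checkpoint-blocking antibody), were carried by 3 mice each. Each resistant line is 1 culture from 1 relapsed tumor, so a difference from the parental line concerns that culture. Each replicate is a separate mouse.

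Replication-dependent histone genes lie in clusters, lack introns and are transcribed chiefly while DNA is copied, when new chromatin needs histones. Most of their mRNAs end in a conserved stem-loop that binds the protein SLBP, in place of a poly(A) tail, and are degraded when S phase ends. Replacement histones such as H2A.Z, H3.3 and the linker histone of H1f0 are made from polyadenylated mRNAs throughout the cell cycle and in cells that no longer divide. The libraries were primed on poly(A), so molecules that end at the stem-loop are captured poorly or not at all, and levels are compared here for the same gene between cells, never between genes. Reads from near-identical histone copies could be split or dropped in counting, so a value given for 1 copy is uncertain in that respect.

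Of 11430 deposited cells, 10605 passed the filter (500 to 6000 genes and under 10% mitochondrial UMIs). Class gates on summed marker UMIs gave 9388 myeloid and 636 lymphoid cells. Among them 158 myeloid and 136 lymphoid cells were cycling, defined by at least 3 UMIs of Mki67 and Top2a (proliferation markers of dividing cells), and 8066 myeloid and 343 lymphoid cells had none. Markers outside the gates followed the classes: the sum of Cd4, Cd8a, Ncr1, Cd5, Thy1 and Gzmb was 2680 to 4855 CPM (UMIs of a gene per 1000000 summed UMIs) in non-cycling lymphoid cells and 42.1 to 81.7 in myeloid cells. The sum of Cd14, Ccr2, Apoe, Ms4a7, Fcgr1 and Flt3 was 6092 to 8720 CPM in myeloid cells and 737 to 1833 in lymphoid cells, so the lymphoid sums were not free of genes of the myeloid list. UMIs per mouse, with cells that failed the filter included, ran from 5036667 to 18894504, and no cell barcode was shared between mice. Cycling cells were deeper, with a median of 14572.5 UMIs against 6921 in myeloid cells and 15229 against 4731 in lymphoid cells.

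The stem-loop itself could be read from the annotated transcripts of 41 of the 67 genes. The search took any 6-base-pair stem with a loop of 4 bases in the form of the histone element, and it matched 52 of 21901 protein-coding genes of the annotation (0.237%). The following lines show it, 5′ to 3′ on the mRNA strand with T for U and the stem-loop in capitals, for genes on which the results turn. Hist1h1e, Hist1h1c and Hist1h4d are annotated with transcripts that run on past it, Hist1h2ap and Hist1h3c end at or near it, and H2afx is an H2af gene that carries it too.
Hist1h1e: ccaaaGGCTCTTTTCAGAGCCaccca
Hist1h1c: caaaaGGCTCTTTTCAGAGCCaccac
Hist1h2ae: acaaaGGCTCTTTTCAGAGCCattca
Hist1h2ap: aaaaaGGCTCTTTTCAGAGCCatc
Hist1h3c: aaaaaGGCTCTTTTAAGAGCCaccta
Hist1h4d: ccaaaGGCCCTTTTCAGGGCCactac
Hist3h2a: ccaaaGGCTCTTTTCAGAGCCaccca
H2afx: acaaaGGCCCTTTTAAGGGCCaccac
After the stem-loop the longest annotated transcript runs on for 1153 bases in Hist1h1e, 840 in Hist1h1c, 151 in Hist1h2ae, 770 in Hist1h4d, 1643 in Hist3h2a and 822 in H2afx. It ends 3 bases after the stem-loop in Hist1h2ap and 74 in Hist1h3c.

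The 67 genes are spread over 7 chromosomes, with 46 on chromosome 13, 10 on chromosome 3, 4 on chromosome 11, 3 on chromosome 6, 2 on chromosome 1 and 1 each on chromosomes 9 and 15 (GRCm38). Promoter windows of 300 bases, from 250 before to 50 after the RefSeq start (GRCm38.p6), matched 59 of them by symbol. Of 51 Hist promoters, 44 held CCAAT on either strand (86.3%, against 37.4% of 32851 promoters), 29 held TATAAA (56.9% against 13.6%) and 10 held the octamer ATTTGCAT (19.6% against 1.74%). The letters AAACACA, known as the H1 box, were in 4 of 5 Hist H1 promoters but in 2 of the other 46 Hist promoters, against 7.18% of all promoters. The H1 windows are shown because 4 H1 genes were among those that differed between tumor lines, 5′ to 3′ on the gene's strand, and capitals mark each of the motifs just named on either strand.
Hist1h1b, chr13:21780576-21780875, minus strand: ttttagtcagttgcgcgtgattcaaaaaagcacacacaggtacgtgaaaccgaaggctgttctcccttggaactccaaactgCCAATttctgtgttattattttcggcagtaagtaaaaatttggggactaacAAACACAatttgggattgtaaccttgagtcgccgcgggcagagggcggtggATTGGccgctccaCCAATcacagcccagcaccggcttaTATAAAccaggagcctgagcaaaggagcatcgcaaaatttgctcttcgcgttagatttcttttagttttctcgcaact
Hist1h1c, chr13:23738557-23738856, plus strand: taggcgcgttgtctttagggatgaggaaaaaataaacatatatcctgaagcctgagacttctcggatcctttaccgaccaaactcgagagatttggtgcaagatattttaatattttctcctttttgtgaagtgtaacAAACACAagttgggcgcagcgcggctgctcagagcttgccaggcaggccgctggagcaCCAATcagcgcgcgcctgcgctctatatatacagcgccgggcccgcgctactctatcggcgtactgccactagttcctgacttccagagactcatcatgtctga
Hist1h1d, chr13:23554782-23555081, plus strand: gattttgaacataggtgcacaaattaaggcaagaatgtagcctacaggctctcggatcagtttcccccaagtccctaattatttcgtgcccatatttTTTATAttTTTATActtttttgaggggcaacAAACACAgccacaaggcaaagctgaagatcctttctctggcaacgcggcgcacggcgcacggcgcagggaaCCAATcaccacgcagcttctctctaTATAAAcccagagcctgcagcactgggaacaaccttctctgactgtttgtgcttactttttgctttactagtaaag
Hist1h1e, chr13:23622509-23622808, minus strand: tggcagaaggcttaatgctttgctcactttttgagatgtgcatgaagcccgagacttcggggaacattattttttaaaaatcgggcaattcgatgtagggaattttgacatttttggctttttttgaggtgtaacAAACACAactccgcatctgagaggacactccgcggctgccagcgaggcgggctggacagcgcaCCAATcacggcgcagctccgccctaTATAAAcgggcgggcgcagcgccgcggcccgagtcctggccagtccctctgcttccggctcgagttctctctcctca
In all 4 windows the H1 box lies upstream of a CCAAT box. The letters TATAAA are in the windows of Hist1h1b, Hist1h1d and Hist1h1e and not in that of Hist1h1c. The annotated start of Hist1h1d in GENCODE lies outside its RefSeq window.

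The first question was how each gene differs between cycling and non-cycling myeloid cells of the same mouse. UMIs were summed per mouse, class and state, and 6 mice had at least 10 cells in both sums. In cycling myeloid cells 28 of the 67 histone genes were higher and 3 lower, against 10.4% of 9235 tested genes higher and 11.1% lower (edgeR's quasi-likelihood test with mouse as a block, Benjamini-Hochberg adjusted p under 0.05). Of the others, 8 were tested without a call and 28 were not tested, because their counts were under the expression filter. A gene could pass that filter through its level in cycling cells alone, as only 20 passed on the non-cycling side by itself, so the share of tested genes that were called is not read as a result.

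All 5 Hist H1 genes, which encode the linker histones that bind DNA between nucleosomes, were higher in cycling myeloid cells. Hist1h1b was at 9.02 to 26.2 CPM in non-cycling cells of the 6 mice (median 15.7) and at 286 to 721 CPM in cycling cells (median 441). The sides did not overlap, and the log2 difference was 4.63 ± 0.18 (SE, adjusted p = 9.82e-15). Hist1h1a rose by 4.22 ± 0.39 and Hist1h1d by 2.60 ± 0.26 on the log2 scale. Hist1h1e was at 41.9 to 137 CPM (median 71.5) in non-cycling and 179 to 522 CPM (median 277) in cycling cells, a smaller log2 difference of 1.70 ± 0.18 (adjusted p = 2.97e-07). Hist1h1c, at 54.8 to 116 CPM (median 76.2) and then 81.9 to 273 CPM (median 115), differed by 0.59 ± 0.20 (adjusted p = 0.0401). Hist1h1c overlapped between states where Hist1h1b, Hist1h1d and Hist1h1e did not, and it was called in 7 of 14 alternatives. Hist1h1a was tested only through its level in cycling cells, so its separation is not counted.

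Among the 14 Hist H2A genes, whose products form the nucleosome core with H2B, H3 and H4, 7 were higher. Hist1h2af went from 0.129 to 0.584 CPM (median 0.415) to 11.0 to 32.2 CPM (median 25.7), with a log2 difference of 5.60 ± 0.44 (adjusted p = 1.36e-09). Hist1h2ab was at 0.935 to 1.82 CPM (median 1.03) and then 40.2 to 92.6 CPM (median 63.4), a difference of 5.54 ± 0.33 (adjusted p = 1.8e-11). Both lay under the expression filter's cut of 3.93 CPM in non-cycling cells and were tested through their level in cycling cells. Their separation by state is therefore not read as a result. The H2A gene of the clusters with the most UMIs, Hist1h2ae, was at 9.02 to 21.6 CPM (median 14.1) in non-cycling and 324 to 617 CPM (median 522) in cycling cells. Its log2 difference was 4.84 ± 0.16 (adjusted p = 8.38e-16), and it stayed within 4.25 to 5.24 in the 14 alternatives run. Hist1h2ap, at 3.89 to 10.5 CPM (median 6.76) and then 88.4 to 322 CPM (median 237), differed by 4.78 ± 0.21. Its lowest non-cycling value lay under that cut, so it did not pass on the non-cycling side by itself. The separation of Hist1h2ap is not read as a result either. Hist3h2a, a member of a separate small cluster, was the tested H2A gene without a call, at 35.5 to 46.3 CPM (median 39.1) and then 0 to 56.3 CPM (median 25.7), a difference of -0.65 ± 0.27 (adjusted p = 0.102).

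For H2B, 4 of the 16 genes were higher, led by Hist1h2bm at 4.41 ± 0.38. The H2B gene with the most UMIs, Hist1h2bc, did not pass the test. It was at 30.8 to 79.9 CPM (median 67.2) in non-cycling and 0 to 209 CPM (median 82.4) in cycling cells, a difference of 0.45 ± 0.22 (adjusted p = 0.164). The cycling values were widely spread and covered the whole range of the non-cycling ones. The 0 came from the E0771 mouse, with 11 cycling cells, while mice of the resistant lines were at 70.2 to 209 CPM. For H3, 5 of the 11 genes were higher. Hist1h3c was at 1.66 to 2.33 CPM (median 2.10) and then 23.4 to 148 CPM (median 70.9), a log2 difference of 4.84 ± 0.34. In non-cycling cells it lay under the expression filter's cut of 3.93 CPM and was tested through its level in cycling cells. The separation of Hist1h3c by state is therefore not read as a result. Hist1h3b rose by 4.67 ± 0.64. For H4, 4 of the 11 genes were higher. Hist1h4d, at 10.1 to 18.9 CPM (median 14.9) and then 72.0 to 251 CPM (median 124), differed by 3.00 ± 0.19 (adjusted p = 3.77e-11). Hist1h4i (0.53, adjusted p = 0.19) and Hist4h4 (0.78, adjusted p = 0.243) had no call.

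The histone genes outside the Hist clusters moved in both directions. H2afx, whose product is phosphorylated at DNA breaks, was at 20.4 to 23.9 CPM (median 21.1) in non-cycling and 77.1 to 331 CPM (median 216) in cycling cells, a log2 difference of 3.08 ± 0.20 (adjusted p = 8.01e-11). H2afv, which encodes an H2A.Z protein, was at 48.4 to 55.2 CPM (median 50.1) and then 154 to 378 CPM (median 284), and differed by 2.20 ± 0.16. The other H2A.Z gene, H2afz, was at 745 to 1026 CPM (median 847) and then 1527 to 3178 CPM (median 2177), a smaller difference of 1.14 ± 0.15 (adjusted p = 3.44e-06). All 3 rose in every mouse with no overlap between states.

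Lower in cycling myeloid cells were H1f0, H3f3b and H2afj. H1f0, the linker histone of non-dividing and differentiated cells, was at 94.2 to 136 CPM (median 120) in non-cycling and 64.8 to 129 CPM (median 88.8) in cycling cells, and its difference was -0.62 ± 0.16 (adjusted p = 0.00758). H3f3b, one of the genes for the replacement histone H3.3, was at 4716 to 5758 CPM (median 5339) and then 3895 to 4808 CPM (median 4471). It was lower in 6 of 6 mice, by -0.48 ± 0.11 (adjusted p = 0.00259). H2afj, a replacement H2A gene, differed by -0.40 ± 0.12 (adjusted p = 0.0192), from 331 to 455 CPM (median 358) to 247 to 464 CPM (median 320). All 3 kept a negative value in the 14 alternatives, but with a stricter class gate, which leaves out cells with UMIs of the other class's markers, 3 mice were left with enough cells and 0 of the 3 genes passed the test (-0.71, adjusted p = 0.123 for H1f0, -0.42, 0.434 for H3f3b and -0.42, 0.315 for H2afj). Without E0771-Res1 replicate 1, which held 55 of the 158 cycling myeloid cells, 1 histone gene was called lower (794 of all 9119 genes). At the cycling gate of 5 UMIs 2 were (980 of all 9223 genes). Myeloid markers outside the class gate also differed between the states. From non-cycling to cycling cells the median over mice went from 656 to 211 CPM for Cd14, from 397 to 175 for Ccr2 and from 822 to 473 for Fcgr1. It rose from 3640 to 4477 CPM for Apoe, from 1366 to 1523 for Ms4a7 and from 7.16 to 32.6 for Flt3. The sum of the 6 markers was 6861 and 6894 CPM. The non-cycling medians cover 8 mice, more than had enough cycling cells. What part these markers have in the changes of H1f0, H3f3b and H2afj was not tested. H2afy, for the macroH2A variant (0.20, adjusted p = 0.347), and H3f3a (-0.23, adjusted p = 0.18) had no call.

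**Figure D1:**
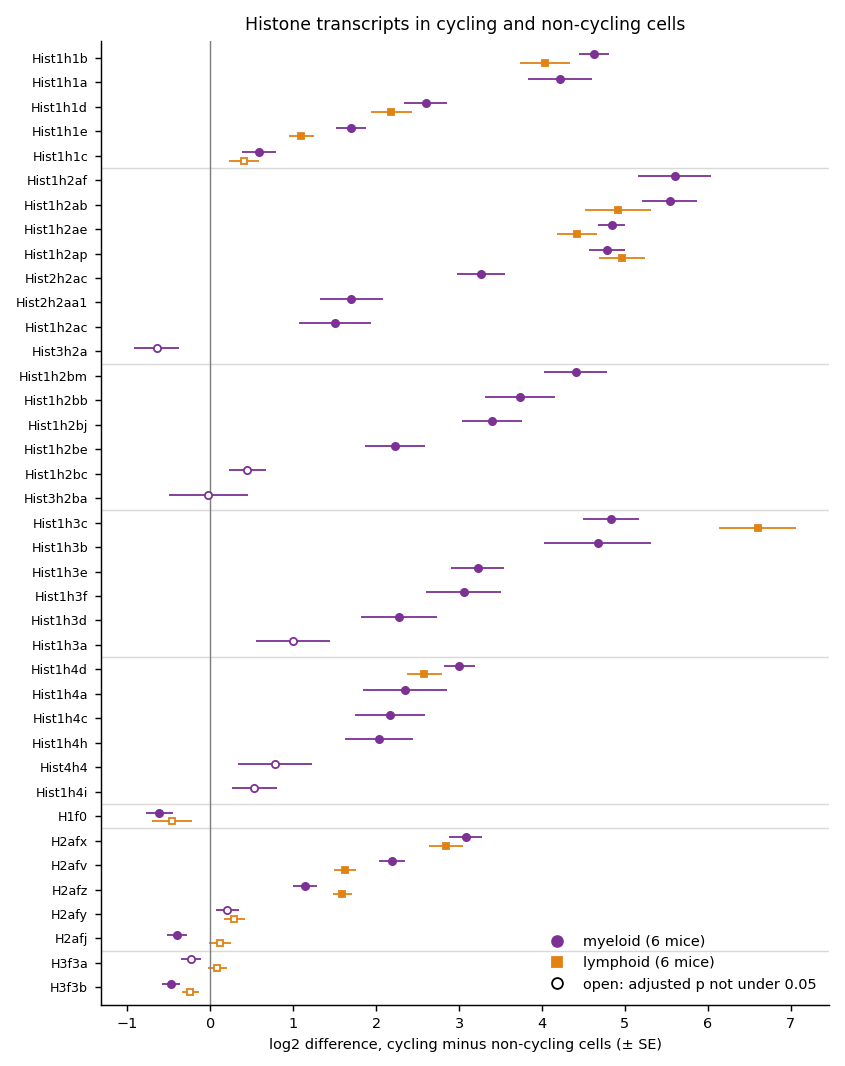
Log2 difference between cycling and non-cycling cells (horizontal axis, bars are SE) for each histone gene tested in myeloid cells (circles, 6 mice) and, where tested, in lymphoid cells (squares, 6 mice), with open points where adjusted p was not under 0.05. Most Hist genes sit to the right, up to 5.60 in myeloid cells (Hist1h2af) and 6.60 in lymphoid cells (Hist1h3c), while H3f3b and H1f0 sit at or below 0.

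**Figure D2:**
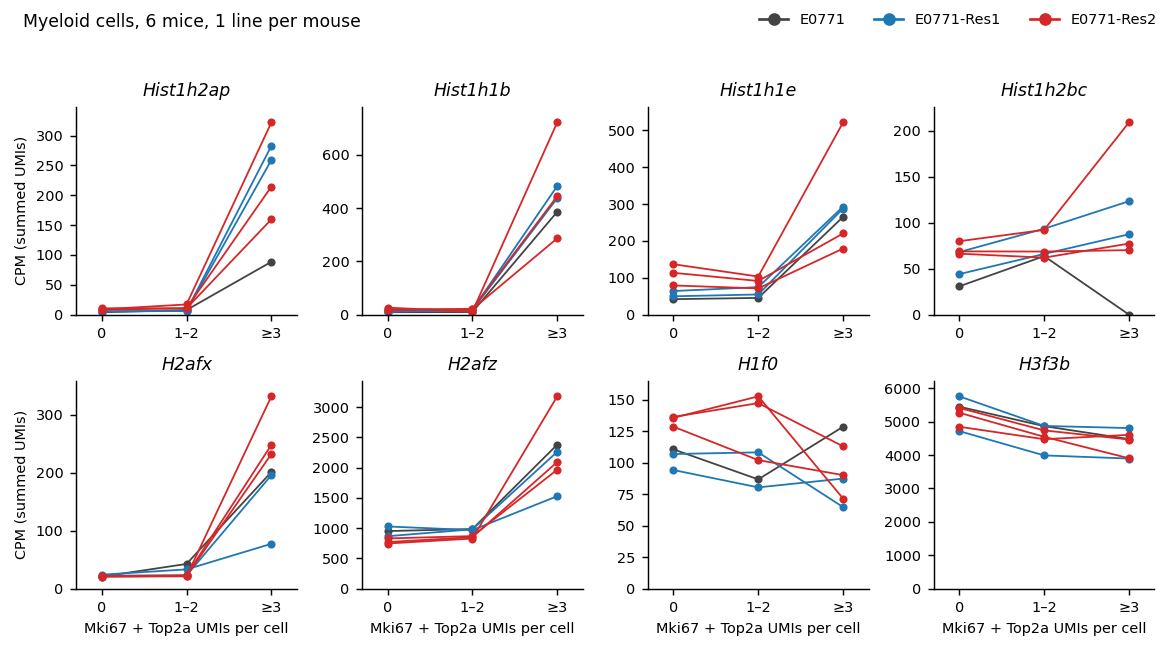
Level in CPM (vertical axis, from 0) of 8 histone genes in myeloid cells with 0, 1 to 2 and at least 3 UMIs of Mki67 and Top2a (horizontal axis), 1 line per mouse colored by tumor line. Hist1h2ap and Hist1h1b are low in the first 2 groups of cells and at medians of 237 and 441 CPM in the last, while H3f3b declines from a median of 5339 to 4471 CPM.

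Depth went with the gate, so each cell with at least 2500 UMIs was also thinned to 2500. The 1217 kept cells below that depth were left out, 9.15% of E0771, 9.63% of E0771-Res1 and 13.5% of E0771-Res2 cells. Then 20 histone genes were tested in place of 39, and 11 were higher and 2 lower, where 199 of all 6381 tested genes were higher and 406 lower. Of the 28 genes not tested here, totals over all kept cells ran from 28 to 281 UMIs, and each had at least 1 UMI in cycling myeloid cells. The position of the stem-loop is given as a description: the 11 tested Hist genes whose transcripts end within 100 bases of it had a median log2 difference of 3.74 (0.99 to 5.54). The 15 whose annotated transcripts run on had a median of 2.17 (-0.65 to 4.84), and the 5 with no match had 4.22 (0.45 to 5.60). The ranges overlapped widely. Of the 39 tested histone genes only 20 passed the expression filter on the non-cycling side by itself. These medians therefore depend on which genes passed and are not read as a result on the stem-loop. Sequence past the annotated transcript ends was not examined, so a gene without a match, Hist1h1b among them, is not shown to lack the element.

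**Figure D3:**
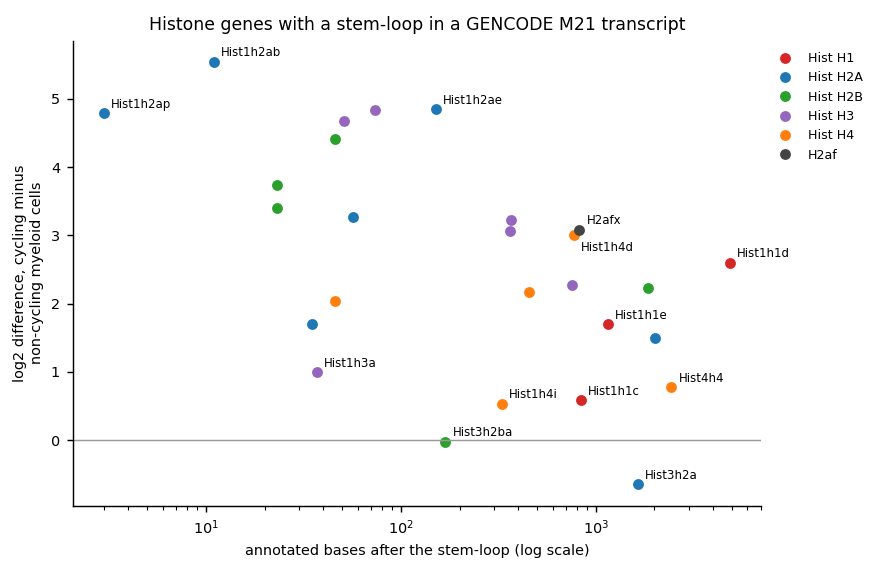
Bases from the stem-loop to the end of the longest annotated transcript (horizontal axis, log scale) against the log2 difference between cycling and non-cycling myeloid cells (vertical axis), 1 point per tested gene with a match. Hist1h2ab, with 11 bases, sits near the top at 5.54, and Hist3h2a, with 1643 bases, at -0.65. Genes that passed the expression filter through cycling cells alone, Hist1h2ab among them, are included.

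In lymphoid cells (6 mice, 3382 genes tested) 11 of the 67 histone genes were higher in cycling cells and 0 lower, against 16.8% and 14.9% of all tested genes. DESeq2 also called 0 lower, and 1 gene (H3f3b) was lower at an unadjusted p under 0.05. The 11 genes were called in each of the alternatives that tested them. Hist1h3c was at 0 to 3.83 CPM (median 0) in non-cycling and 75.6 to 174 CPM (median 154) in cycling lymphoid cells, with a log2 difference of 6.60 ± 0.46. That value rests on 1 UMI against 202, a ratio of rates of 173 with a 95% counting interval (exact, from the binomial) of 30.7 to 6861. Hist1h2ap went from 0 to 24.8 CPM (median 8.57) to 208 to 724 CPM (median 330), a difference of 4.96 ± 0.28. The Hist H2A gene Hist1h2ae was at 0 to 68.1 CPM (median 20.9) and then 435 to 691 CPM (median 586). Of the 17 tested histone genes only 8 passed the expression filter on the non-cycling side by itself. Hist1h3c, Hist1h2ap, Hist1h2ae, Hist1h2ab, Hist1h1b, Hist1h1d, Hist1h4d and H2afx were not among those 8. Each lay under the filter's cut of 55.3 CPM in non-cycling cells of some mice and was tested through its level in cycling cells. Their separation by state is not read as a result. Separation is also not counted over the 17 genes. Hist1h2ae differed by 4.42 ± 0.25, Hist1h1b by 4.03 ± 0.30 and Hist1h4d by 2.58 ± 0.21. The H1 gene with the most UMIs, Hist1h1e, was at 174 to 365 CPM (median 197) and then 350 to 603 CPM (median 468), a difference of 1.10 ± 0.15.

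The H2af genes that rose in myeloid cells also rose in lymphoid cells. H2afx differed by 2.85 ± 0.21, H2afv by 1.62 ± 0.13 and H2afz by 1.59 ± 0.11. H2afz was at 817 to 1061 CPM (median 924) in non-cycling and 2291 to 3411 CPM (median 2983) in cycling lymphoid cells, with no overlap. H3f3b (-0.24, adjusted p = 0.0758), H1f0 (-0.46, adjusted p = 0.156) and Hist1h1c (0.40, adjusted p = 0.0949) did not pass. Without the expression filter 33 of 67 tested histone genes were called higher in cycling lymphoid cells, where 927 of all 13104 genes were. With cells thinned to 2500 UMIs 6 of 11 were, where 126 of all 1022 genes were.

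Whether the cycling difference itself differed between the classes was tested in the 5 mice with all 4 sums. It was called for H2afz alone among 26 tested histone genes, with a cycling difference larger in lymphoid cells by 0.69 ± 0.18 on the log2 scale (adjusted p = 0.0347, against 2.11% of all 5155 genes called in that direction). Under 3 other settings and without any of the 5 mice in turn it did not pass. The other differences in size between the classes, such as that of Hist1h1e, did not pass this test.

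Cycling cells were then split by phase. A cell was S-leaning where its summed UMIs of 25 S-phase genes, relative to all cycling cells, exceeded those of 25 G2/M genes, and G2M-leaning otherwise. In myeloid cells 2 mice had enough cells, both of resistant lines, and of 20 tested histone genes Hist1h2bc was called lower in S-leaning cells (-1.43 ± 0.38, adjusted p = 0.0169, 0.966% of all genes lower). It was higher in 1 of the mice and lower in the other, so no direction was shared. With lymphoid and myeloid cells pooled, a choice made after seeing those numbers, 6 mice could be compared. They held 19, 53, 18, 16, 21 and 15 S-leaning cells and, in the same order, 12, 43, 13, 12, 20 and 16 G2M-leaning cells. Over all mice there were 163 S-leaning and 128 G2M-leaning cells, 63 of them with an S share between 0.4 and 0.6. In the 6 mice 2 of 21 tested histone genes were lower in S-leaning cells, against 0.747% of all genes.

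H2afx was at 397 to 463 CPM (median 424) in G2M-leaning and 106 to 247 CPM (median 153) in S-leaning cells, with no overlap and a log2 difference of -1.49 ± 0.16 (adjusted p = 0.000521). H2afv was lower by -0.80 ± 0.17 (adjusted p = 0.0428), at 373 to 746 CPM (median 583) and then 261 to 436 CPM (median 337). The H2afv call was lost on leaving out any 1 of 5 mice, all but E0771-Res2 replicate 3, whereas H2afx was called without each of the 6. With the stricter cycling gate of 5 UMIs 0 were called. Of the 13 tested Hist genes 0 passed (edgeR, and 3 were lower at an unadjusted p under 0.05). All 13 values were negative, from -0.19 (Hist1h1b) to -0.76 (Hist1h2bc). Of the 21 tested histone genes 17 passed the expression filter on the G2M-leaning side alone and 14 on the S-leaning side alone, so this shared sign is not read as a result. Hist1h2ae was at 482 to 837 CPM (median 628) in G2M-leaning and 381 to 682 CPM (median 423) in S-leaning cells (-0.42 ± 0.20, adjusted p = 0.398), and Hist1h1b at 497 to 1093 and 521 to 936 CPM (-0.19 ± 0.19, adjusted p = 0.721). H2afz differed by 0.01 ± 0.12. The mix of lymphoid and myeloid cells was not held equal between the phases, and the pooled fit had no term for class. Cycling levels differed by class: the summed Hist genes had a median of 2759 CPM in cycling myeloid and 4253 CPM in cycling lymphoid cells. The part of class in the pooled results was not tested.

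Non-cycling lymphoid and myeloid cells of the same mouse were compared in 8 mice. In lymphoid cells 8 of the 67 histone genes were higher and 6 lower, where 23.4% and 28.9% of all 8348 tested genes were called, so calls in general were frequent. Of the 19 tested genes, 4 Hist H1 genes were higher. Hist1h1e was at 41.9 to 137 CPM (median 58.0) in myeloid and 109 to 365 CPM (median 188) in lymphoid cells, a log2 difference of 1.24 ± 0.14 (adjusted p = 3.87e-09). Hist1h1b differed by 1.27 ± 0.26, Hist1h1d by 1.16 ± 0.32 and Hist1h1c by 0.47 (adjusted p = 0.00613). H2afv, at 37.6 to 55.2 CPM (median 50.1) and then 173 to 295 CPM (median 195), had the largest difference, 1.73 ± 0.12 (adjusted p = 3.13e-14), and was higher in 8 of 8 mice. The groups did not overlap for H2afv, and the H1 genes overlapped in part. Hist1h4d, Hist1h2ae and H2afx were also higher, by 0.96, 0.72 and 0.69, and the Hist1h2ae call held in 7 of 14 alternatives.

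The H3.3 genes were lower in non-cycling lymphoid cells. H3f3a was at 2238 to 2686 CPM (median 2501) in myeloid and 1292 to 1900 CPM (median 1593) in lymphoid cells, a log2 difference of -0.96 ± 0.09 (adjusted p = 3.83e-11). H3f3b was at 4716 to 5758 CPM (median 5339) and then 3309 to 4515 CPM (median 4027), lower by -0.71 ± 0.09 (adjusted p = 1.76e-08). Neither gene overlapped between the classes. The others called lower were Hist3h2a (-1.23 ± 0.25), Hist1h2bc (-1.14 ± 0.26), H2afy (-0.44 ± 0.10) and H1f0, which was at 74.3 to 136 CPM (median 109) in myeloid and 37.1 to 88.4 CPM (median 74.9) in lymphoid cells and lower in 8 of 8 mice (adjusted p = 2.12e-06). Cells without a UMI of Mki67 and Top2a were not free of other cycle genes: the S-phase list had a median of 884 CPM in non-cycling lymphoid and 406 CPM in myeloid cells, and the G2/M list 371 and 216 CPM. The part of these in the H1 differences was not tested. Thinned to 2500 UMIs, 3 of 12 tested histone genes were called higher and 6 lower, where 1275 and 1408 of all 5509 genes were.

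The tumor lines were compared mouse by mouse within each class and state. In non-cycling myeloid cells 43 histone genes were tested. E0771-Res2 against E0771 gave 9 histone genes higher and 1 lower, where 2.84% and 4.36% of all 10596 genes were called. DESeq2 gave 5 higher and 2 lower, where 217 of all genes were higher and 495 lower. E0771-Res2 against E0771-Res1 gave 4 higher and 0 lower, against 2.67% and 2.41% (in edgeR 2 were lower at an unadjusted p under 0.05). DESeq2 gave 4 and 0 as well, where 214 of all genes were higher and 282 lower. E0771-Res1 against E0771 gave 0 of 43 (5 with an unadjusted p under 0.05), against 0.0566% of all genes. DESeq2 gave 1, where 38 of all 10596 genes were higher and 50 lower. Both comparisons with E0771 share its mice, and with n = 2 the parental level rests on a pair of animals.

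The H1 genes made up 4 of the 9 that were higher in E0771-Res2 than in E0771. In the parental mice Hist1h1e was at 41.9 and 52.0 CPM, against 64.0, 45.6 and 49.7 CPM for E0771-Res1 mice and 79.1, 137 and 113 CPM for E0771-Res2 mice. All 3 E0771-Res2 mice lay above all 5 others, and the log2 difference was 1.19 ± 0.21 from E0771 (adjusted p = 0.00585) and 0.98 ± 0.17 from E0771-Res1 (adjusted p = 0.00746). Hist1h1c was at 54.8 and 47.5 CPM, then 75.6, 62.2 and 66.1, then 76.8, 100 and 116 CPM in the same order of lines. E0771-Res2 was highest again, though its lowest mouse lay close to the highest E0771-Res1 mouse, and the difference from E0771 was 0.87 ± 0.16 (adjusted p = 0.00649). Hist1h1b was at 9.02 and 9.57, then 15.1, 13.4 and 10.5, then 16.4, 26.2 and 20.0 CPM (1.11 ± 0.23, adjusted p = 0.0123). Hist1h1d was at 4.95 and 5.81, then 8.46, 4.46 and 5.63, then 9.70, 15.3 and 14.5 CPM (1.26 ± 0.29, adjusted p = 0.0219). Hist1h1d was called against E0771-Res1 too (0.93 ± 0.23, adjusted p = 0.0366). Hist1h1a, with 0.703 to 2.71 CPM, was not called (0.74, adjusted p = 0.437).

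The other 5 genes higher in E0771-Res2 encode core histones. Parental mice had Hist1h2bc at 30.8 and 26.0 CPM, E0771-Res1 mice at 68.1, 49.4 and 44.1 and E0771-Res2 mice at 68.8, 66.3 and 79.9. Both resistant lines lay above the parental mice, by 1.27 ± 0.17 for E0771-Res2 (adjusted p = 0.00105) and by 0.92 ± 0.17 for E0771-Res1, which missed the threshold (adjusted p = 0.0771). Hist1h2ae was at 9.02 and 9.23, then 13.7, 9.24 and 14.5, then 13.4, 21.6 and 19.5 CPM (0.94 ± 0.24, adjusted p = 0.0354). Hist1h2ap was at 3.89 and 5.81, then 5.57, 5.10 and 5.16, then 7.95, 8.79 and 10.5 CPM (0.92 ± 0.25, adjusted p = 0.0421). In Hist1h2ap the E0771-Res2 mice lay above all others, in Hist1h2ae they overlapped with E0771-Res1. Hist2h2ac was at 4.24 and 2.74, then 5.77, 2.87 and 4.92, then 8.18, 9.62 and 9.95 CPM, higher than E0771 by 1.28 ± 0.29 (adjusted p = 0.0185) and than E0771-Res1 by 0.89 ± 0.22 (adjusted p = 0.0382). Hist1h3d was at 1.77 and 0.68 CPM, then 3.38, 3.51 and 2.58, then 3.16, 4.81 and 4.14 CPM (1.47 ± 0.41, adjusted p = 0.0492), a low-count gene close to the threshold.

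Of the genes outside the Hist clusters, H2afy was lower in E0771-Res2. Parental mice were at 424 and 437 CPM, E0771-Res1 mice at 349, 388 and 375 and E0771-Res2 mice at 307, 374 and 304, a log2 difference of -0.44 ± 0.11 (adjusted p = 0.0276). H1f0 was at 111 and 102, then 107, 74.3 and 94.2, then 136, 129 and 136 CPM. It was higher in E0771-Res2 than in E0771-Res1 by 0.49 ± 0.10 (adjusted p = 0.016), and the difference from E0771 did not pass (0.28, adjusted p = 0.162). H3f3b spanned 4716 to 5758 CPM over the 8 mice with no call, and the lines overlapped.

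**Figure D4:**
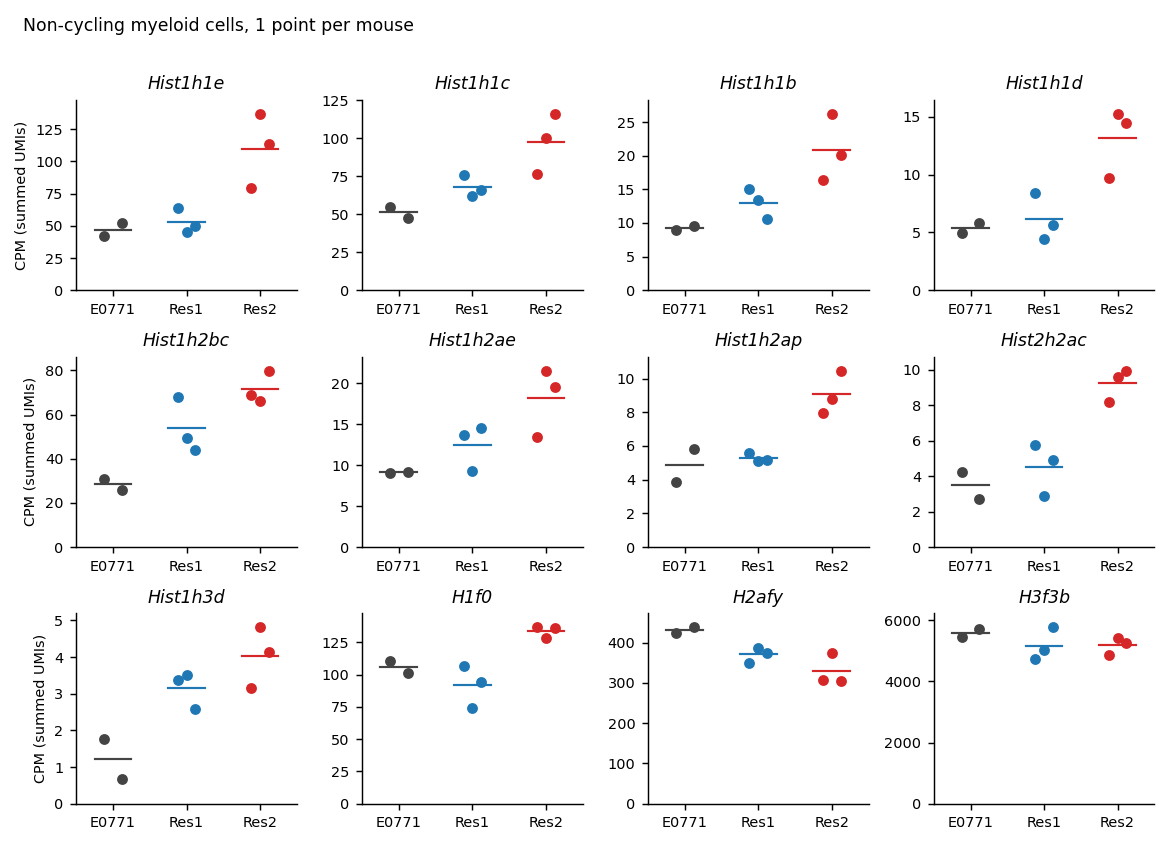
Level in CPM (vertical axis, from 0) of the histone genes called between tumor lines in non-cycling myeloid cells, and of H3f3b for comparison, 1 point per mouse and the mean as a line, for E0771, E0771-Res1 (Res1) and E0771-Res2 (Res2). The 3 E0771-Res2 mice are highest for Hist1h1e (79.1 to 137 CPM), and E0771 has the highest mean for H2afy.

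Of the 43 tested genes 42 passed the expression filter on the E0771-Res2 mice alone and 27 on the E0771 mice alone, so no median over them is given. Other quantities moved with the lines in the same cells. Per mouse, in the order 2 E0771, 3 E0771-Res1 and 3 E0771-Res2, the S-phase list was at 351, 347, 424, 337, 416, 423, 397 and 453 CPM. The share of cells with at least 10 UMIs of C1qa, C1qb and C1qc (complement genes of macrophages) was 29.9, 25.8, 40.3, 26.9, 29.0, 41.6, 31.7 and 37.8%, and Ccr2, a monocyte receptor, was at 496, 479, 370, 466, 424, 248, 333 and 226 CPM. Median UMIs per cell were 8010, 7955, 7838, 8085.5, 7504, 6867, 5636 and 5501, so E0771-Res2 was the shallowest.

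Depth, the C1q genes and the S-phase list were varied in turn, while Ccr2 was not. All of these alternatives but the thinning alone were chosen after seeing the data. Among cells with at least 10 C1q UMIs 3 of 24 tested histone genes were called between E0771-Res2 and E0771 (126 genes higher and 215 lower of 9277 in that fit), Hist1h1e (1.45), Hist1h1c (1.28) and Hist1h2bc (1.07), and among cells with fewer 8 of 34 were (226 higher and 290 lower of 9926). Thinning to 2500 UMIs gave 4 of 24 (202 higher and 301 lower of 8978). It left out the cells below that depth, 13.5% of kept E0771-Res2 cells against 9.15% of E0771 cells, so the lines were not compared on the same share of cells. In cells thinned to 2500 UMIs and without a UMI of the S and G2/M lists, Hist1h1e (1.15), Hist1h2bc (1.29) and Hist1h1c (0.94) were called, and they were the 3 called of 16 tested (119 genes higher and 111 lower of 6930). Hist1h2bc was called in 19 of 19 alternatives (1.07 to 1.64), while Hist1h1e (1.01 to 1.45) and Hist1h1c (0.73 to 1.28) were each called in 17, the exceptions being the fits without E0771 replicate 1 or without E0771 replicate 3. Without either parental mouse E0771 was left with 1 animal, and calls fell among the histone genes and among all genes. Without E0771-Res2 replicate 3, 4 histone genes were called, where 133 of all 10483 genes were higher and 169 lower. The other 7 genes were called in 6 to 13 alternatives. The part of Ccr2 and of the S-phase list in the remaining calls was not tested.

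**Figure D5:**
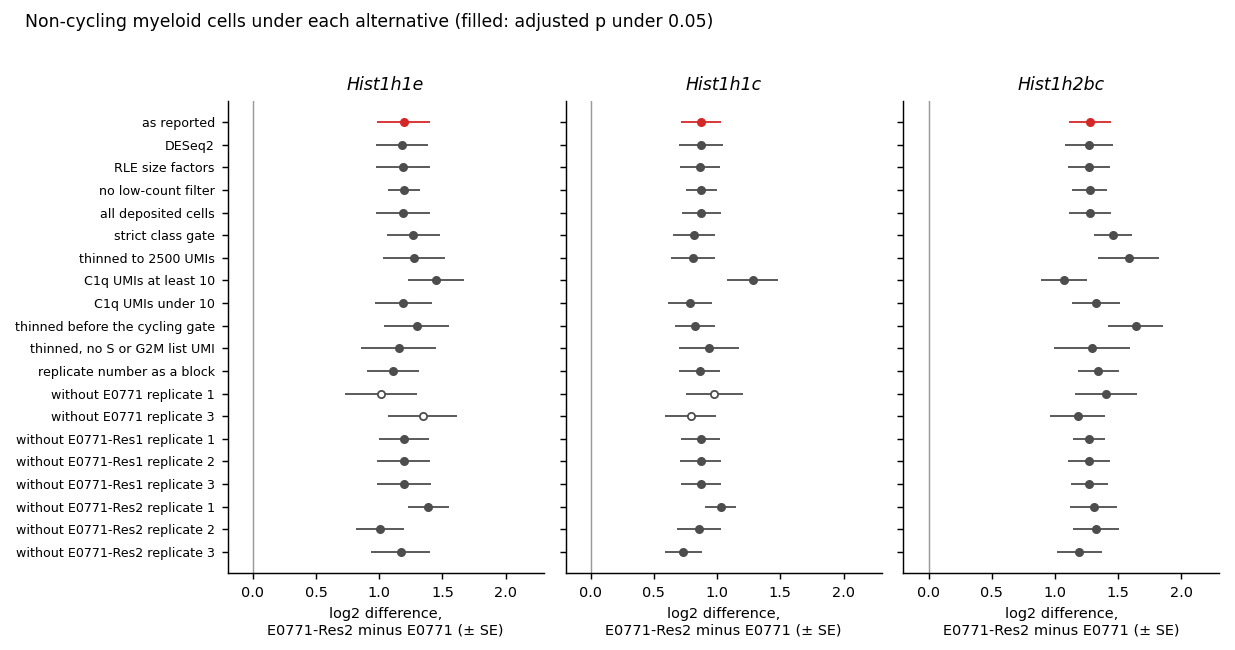
Log2 difference between E0771-Res2 and E0771 in non-cycling myeloid cells (horizontal axis, bars are SE) for Hist1h1e, Hist1h1c and Hist1h2bc under each processing setting (vertical axis), filled where adjusted p is under 0.05. The values stay between 0.73 and 1.64 in the settings shown.

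Cycling myeloid cells gave no histone gene called between lines among 25 tested in any of the 3 comparisons (edgeR; 2, 2 and 1 with an unadjusted p under 0.05), where 0.104%, 0.0622% and 0.0622% of all 4825 genes were called. Here E0771 was represented by 1 mouse, assumed to vary like the others. In non-cycling lymphoid cells 0 of 11 tested were called in each comparison (edgeR; 0, 2 and 2 with an unadjusted p under 0.05), against 0%, 0% and 0.0252% of all genes. There the E0771 mice had Hist1h1e at 180 and 109 CPM, the E0771-Res1 mice at 174, 238 and 177 and the E0771-Res2 mice at 197, 213 and 365 (0.77 ± 0.32 against E0771, adjusted p = 0.653). Sums of 22 to 65 lymphoid cells per mouse limit what these comparisons can show.

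The share of myeloid cells that were cycling was 1.15 and 1.71% for parental mice, 3.10, 0.933 and 2.24% for E0771-Res1 mice and 1.37, 1.28 and 1.12% for E0771-Res2 mice. The lines overlapped, and an exact two-sided permutation test gave p = 0.6, 0.6 and 0.4 for the 3 comparisons (adjusted p = 0.6 each), in a design that cannot go below 0.1. The means were 1.43 ± 0.395, 2.09 ± 1.09 and 1.26 ± 0.127% (SD, n = 2, 3 and 3).

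Genes that process histone mRNA or handle histone proteins were counted as a list of 35. In cycling myeloid cells 20 were higher and 3 lower of 34 tested, against 10.4% and 11.1% of all tested genes. Asf1b, a chaperone of H3 and H4, was at 3.15 to 5.83 CPM (median 4.51) in non-cycling and 32.2 to 113 CPM (median 76.6) in cycling cells, a log2 difference of 3.88 ± 0.29. Chaf1a, a subunit of the CAF-1 complex that loads H3 and H4 onto new DNA, differed by 2.77 ± 0.37, Hjurp, the chaperone of the centromeric histone, by 1.88 ± 0.21, and Npat, the activator of Hist gene transcription, by 1.46 ± 0.37. Slbp, whose product binds the stem-loop shown above, differed by 0.96. The 3 lower were Daxx (-0.79), an H3.3 chaperone, Ubn2 (-0.71), a part of the HIRA complex that deposits H3.3, and Znhit1 (-0.69), a part of the complex that exchanges H2A.Z. In lymphoid cells 13 of 22 tested were higher in cycling cells, against 16.8% of all tested genes. As for the histone genes, a gene could pass the expression filter through its level in cycling cells alone. Between S-leaning and G2M-leaning cells of both classes Slbp was higher in S-leaning cells by 0.97 (adjusted p = 0.0109) and Cenpa, the centromeric H3 gene, lower by -1.51 (adjusted p = 0.00136). Between E0771-Res2 and E0771 in non-cycling myeloid cells 1 of 34 was called, against 2.84% of all genes higher and 4.36% lower. It was Daxx, at 187 and 254 CPM in E0771 and 142 to 159 CPM in E0771-Res2 (-0.57 ± 0.13, adjusted p = 0.0208).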

How the data were processed

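Tumor-infiltrating CD45+ cells were profiled by droplet single-cell RNA sequencing with 3′ chemistry and sample tags (CellPlex), 1 tagged sample per mouse. The deposited matrices hold raw UMI counts per gene and cell, which the authors made with Cell Ranger (version 6.1.2 in the file headers) on mm10. The labels also name Seurat, with no version. Another parental mouse was not analysed here.

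The members of the gene set, the gene lists and the tests were chosen with earlier results of these data known. Cells with 500 to 6000 genes and under 10% mitochondrial UMIs were kept. A cell was lymphoid with at least 5 UMIs of a lymphoid marker list above the other lists, and myeloid with at least 10 UMIs of a myeloid list, at least 5 times its lymphoid UMIs. No doublet caller was run. A stricter class gate served as the alternative. Cells with 1 to 2 UMIs of Mki67 and Top2a stayed outside both states.

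UMIs were summed per mouse, class and state, for sums of at least 10 cells. Mitochondrial, ribosomal protein and Gm genes (8652) were left out, leaving 23633. The sums were tested with edgeR 4.0.16 (TMM, filterByExpr, quasi-likelihood test at its default prior count, Benjamini-Hochberg over all tested genes) in R 4.3.3. Mouse was a block within mice. A prior count of 2 was used for the log CPM behind the correlations of same-numbered mice. CPM use the summed UMIs of those genes. DESeq2 1.42.0, RLE size factors, no filter, all deposited cells, other gates, thinned cells and leaving out each mouse were alternatives. Shares of cycling cells were compared with exact permutation tests (scipy 1.17.1). Counts were simulated with a dispersion of 0.05, no mouse effect and a log2 change of 1.5. The fit recovered 81.2% of changed genes for cycling myeloid, 99.4% for cycling lymphoid and 88.3% for lymphoid against myeloid cells. It recovered 69.1% for the difference between classes and 100% for the pooled phases. For tumor lines it was 79.0% in non-cycling myeloid and 61.8% in non-cycling lymphoid cells. Smaller changes and the spread of these data were not simulated.

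Named with values were the member with the most UMIs of each histone group, the 5 called members with the largest change in each direction, and every member called between tumor lines. Other members that are named were chosen after their values were seen. Stem-loops came from GENCODE transcripts and promoters from RefSeq, both of GRCm38. P-values of comparisons between tumor lines measure the spread between mice. Among cycling myeloid cells E0771 had 1 mouse, so its own spread was not measured. In comparisons within mice, where mouse was a block, p-values measure how the difference within a mouse varied from mouse to mouse.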

Additional observations from a re-analysis of the deposited data

Results flagged for a closer look

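The cycling difference of H2afz was larger in lymphoid than in myeloid cells, by 0.69 ± 0.18 on the log2 scale in the 5 mice with all 4 sums (adjusted p = 0.0347, edgeR's quasi-likelihood test of the difference itself). The value stayed positive in every alternative, from 0.30 to 0.78, and the adjusted p ran from 0.0321 to 0.461.

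In the comparison of S-leaning with G2M-leaning cells of both classes, E0771-Res2 replicate 3 stood apart for H2afv. Its log2 difference was 0.23, while the nearest of the other 5 mice was at -0.80 and the farthest at -1.11. It was 1 of 58 such differences examined, and chance sets apart about 1 in 20. Without this mouse H2afv was lower in S-leaning cells by -0.98 (adjusted p = 0.00363).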

How the results depend on the processing

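Of 2114 values of named genes under alternative settings, 1957 kept their direction and side of the threshold, 135 lost the call, 22 gained one and 0 turned. Thinning to 2500 UMIs left 13 histone genes called between cycling and non-cycling myeloid cells (31 as reported), 6 in lymphoid cells (11), 9 between lymphoid and myeloid cells (14) and 4 between E0771-Res2 and E0771 in non-cycling myeloid cells (10), with fewer genes tested. It moved the median of all genes between cycling and non-cycling myeloid cells to -0.16. Thinning before the cycling gate gave 6 in the last comparison, and without cells holding a UMI of the S and G2/M lists 3, with 1 between E0771-Res2 and E0771-Res1. Cells with at least 10 C1q UMIs gave 3 and 2, and 1 between E0771-Res1 and E0771. With no expression filter 33 were called in cycling lymphoid cells, 11 between E0771-Res2 and E0771-Res1, 1 between E0771-Res1 and E0771, and 1 for each resistant line against E0771 in cycling myeloid cells. Of all 15888 genes in non-cycling myeloid cells that setting gave 504 higher and 608 lower between E0771-Res2 and E0771-Res1. Between E0771-Res1 and E0771 it gave 195 and 168. The cycling gate at 5 UMIs gave 17 in lymphoid cells, 0 for the difference between classes and 0 for S-leaning against G2M-leaning cells of both classes. In lymphoid cells that gate gave 538 higher and 494 lower of all 3579 genes. RLE size factors and thinning each gave 0 for the difference between classes. The stricter class gate gave 1 for the phase comparison of both classes and 1 between E0771-Res1 and E0771, as did DESeq2 for the latter (1). The call between phases in myeloid cells was lost (0) under DESeq2, with all deposited cells and without the block. The cause of these changes was not tested. The myeloid cycling share, lower in E0771-Res2 than in E0771 by 0.175 percentage points, turned to 0.193 after thinning and 0.0951 at the 5-UMI gate.

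Calls over all genes in non-cycling myeloid cells changed when a mouse was left out. Without E0771-Res2 replicate 3, E0771-Res2 against E0771 gave 133 higher and 169 lower of 10483 genes. Without E0771-Res1 replicate 3 it gave 354 and 570 of 10642. E0771-Res2 against E0771-Res1 gave 75 and 45 of 10483 without E0771-Res2 replicate 3. Without E0771-Res1 replicate 1 it gave 298 and 515 of 10508. Among histone genes, leaving out each mouse in turn gave 28 to 33 called genes for cycling myeloid cells and 11 to 14 for lymphoid cells. It gave 0 to 1 for the difference between classes, 13 to 15 for lymphoid against myeloid cells and 1 to 2 for the phases of both classes. In non-cycling myeloid cells it gave 0 to 1 (E0771-Res1 against E0771), 1 to 13 (E0771-Res2 against E0771; 1 without either E0771 mouse and 4 without E0771-Res2 replicate 3) and 1 to 7 (E0771-Res2 against E0771-Res1; 1 without E0771-Res2 replicate 3, 7 without E0771-Res1 replicate 1, and 2 without E0771 replicate 1 or 3, E0771-Res1 replicate 2 or 3, or E0771-Res2 replicate 2). In cycling myeloid cells it gave 0 to 1 in each comparison, and the cycling share of E0771-Res2 less that of E0771 ran from -0.455 to 0.105.

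Replicate numbers are shared between the lines. Deviations of same-numbered mice from their line means correlated by -0.06 to 0.09. Between the resistant lines same-numbered pairs were at 0.090, 0.073 and 0.086, and the other pairs at -0.083 to -0.0041. The deviations of the parental pair mirror each other, so correlations with E0771 mice cannot decide whether anything is shared. Whether more than a number is shared was not tested. With the replicate number as a block in non-cycling myeloid cells, 1 histone gene was called between E0771-Res1 and E0771, 10 between E0771-Res2 and E0771 and 4 between E0771-Res2 and E0771-Res1. Of all 10596 genes that block gave 44 higher and 44 lower between E0771-Res1 and E0771, where 4 and 2 were called without it. Between E0771-Res2 and E0771 it gave 372 and 664, where 301 and 462 were called without it. Mouse was the block in the comparisons within mice. Without that block 29 were called for cycling myeloid, 11 for cycling lymphoid and 11 for lymphoid against myeloid cells. The stricter class gate could not be fitted for the difference between classes, nor that gate and the 5-UMI gate for the phases in myeloid cells.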

Other observations

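Cells with 1 to 2 UMIs of Mki67 and Top2a, which belonged to neither state, held Hist mRNA at a level close to that of cells with none. The summed CPM of the 57 Hist genes had a median over mice of 362 in non-cycling myeloid cells, 407 in these cells and 2759 in cycling cells. In lymphoid cells the medians were 666, 584 and 4253. The S-phase list rose more evenly, with medians of 406, 525 and 2731 CPM in myeloid and 884, 1792 and 5296 CPM in lymphoid cells. In this order of states the medians cover 8, 8 and 6 mice for myeloid and 8, 7 and 6 for lymphoid cells. The mice are therefore not the same across states. No test was run on these sums, and the cells with 1 to 2 UMIs numbered 1164 myeloid and 157 lymphoid.

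By histone type the rise from non-cycling to cycling myeloid cells took the summed Hist H2A genes from a median of 76.6 to 1049 CPM, Hist H1 from 149 to 874, Hist H2B from 78.5 to 311, Hist H3 from 17.6 to 205 and Hist H4 from 46.1 to 201 CPM. The H3f genes went the other way, from 7839 to 6710 CPM. These non-cycling medians are over 8 mice and the cycling medians over 6, so they do not cover the same mice.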
